A study of Macaca fascicularis with 2 samples.

Results

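The cells described here were the tagged cells of cynomolgus monkey cartilage and disc that carried *ASPN* and *CILP* together. A cell was counted as ASPN+ CILP+ where each gene took at least 100 reads per 1000000 of that cell's reads (rpm), *KRT19*, a marker of notochordal cells, had under 5 reads, and 1 of the tags A951 to A954 was assigned. This held for 660 of 5311 tagged cells under the *KRT19* limit, in a library of 5723 cells. The values of *ASPN* and *CILP* chose the cells and are given as a description.

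*ASPN* encodes asporin, a small leucine-rich proteoglycan of the extracellular matrix (ECM) that binds collagen and TGF-β. *CILP* encodes the cartilage intermediate layer protein, a secreted matrix protein known to restrain TGF-β1 and IGF1 signaling. Fibrocartilage combines the proteoglycans of cartilage with fibrous collagens such as type I and type III collagen, whereas hyaline articular cartilage (AC) rests on type II, IX and XI collagen and aggrecan. *CRTAC1* encodes a secreted glycoprotein of cartilage, and *IGFBP6* a binding protein with a preference for IGF2.

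The library pooled AC of the femoral condyle and nucleus pulposus (NP) of a lumbar disc from 1 male wild-type cynomolgus monkey with AC of the femoral condyle from another, both 3 years old and untreated as far as the labels say. Tissue was digested with enzymes, live cells were labeled with tags and sorted, and RNA was amplified by TAS-seq, a bead-based single-cell method read here without molecular identifiers. The labels list 3 tissue samples and the cells carry 4 tags, and no source used here pairs a tag with a tissue or a monkey. All values therefore come from 1 library without replicates, no test was possible, and intervals cover counting error only, since PCR copies are not independent molecules.

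The library held 1354369622 reads, from 24907 to 1649566 per cell. ASPN+ CILP+ cells were deeper than the rest, with a median of 271695 reads and 4540.5 genes detected, against 191936 reads and 3722 genes in the other 4651 cells. No cell number occurred more than once in the library. A single read was weak evidence of expression: *TBXT*, a notochordal transcription factor, had a read in 15.9% (95% exact binomial interval 13.2–18.9) of ASPN+ CILP+ cells, with a median of 1 read in those cells, against 88.2% of 363 cells with *KRT19* at or over the limit, with a median of 135 reads. Shares of cells are therefore given at 100 rpm or more rather than at a first read.

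*ASPN* reached the limit in 1240 cells and *CILP* in 1392, counting cells with both, so that 325 cells would carry both if the 2 genes were assorted freely, and 2.03 times as many did. The excess was 2.22 times in A951, 2.58 in A952, 1.69 in A953 and 1.88 in A954. In ASPN+ CILP+ cells, *ASPN* ranged from 100.5 to 5824 rpm with a median of 818, and *CILP* from 100.1 to 16483 rpm with a median of 587. The lowest value of the lower gene among the cells inside was 100.1 rpm and the highest outside was 99.5 rpm. Of the 660 cells, 146 had the lower gene between 100 and 200 rpm, and 103 cells outside had it between 50 and 100 rpm, so the limit cut through a continuous range.

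The tags differed in how many such cells they held. ASPN+ CILP+ cells were 36 of 921 cells in A951 (3.91%, exact binomial interval 2.75–5.37), 38 of 861 in A952 (4.41%, 3.14–6.01), 221 of 1377 in A953 (16.0%, 14.1–18.1) and 365 of 2152 in A954 (16.96%, 15.4–18.6). The shares in A953 and A954 were higher than those in A951 and A952, and with 1 library no test of this was possible. The tags also differed in cells with *KRT19* at or over the limit, of which A951 held 76, A952 271, A953 6 and A954 10. The order of the tags was reversed for cells with 0 reads of both genes, at 30.3% in A951, 28.8% in A952, 18.2% in A953 and 18.2% in A954. Whether this follows tissue, animal or handling cannot be told apart with these labels.

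**Figure D1:**
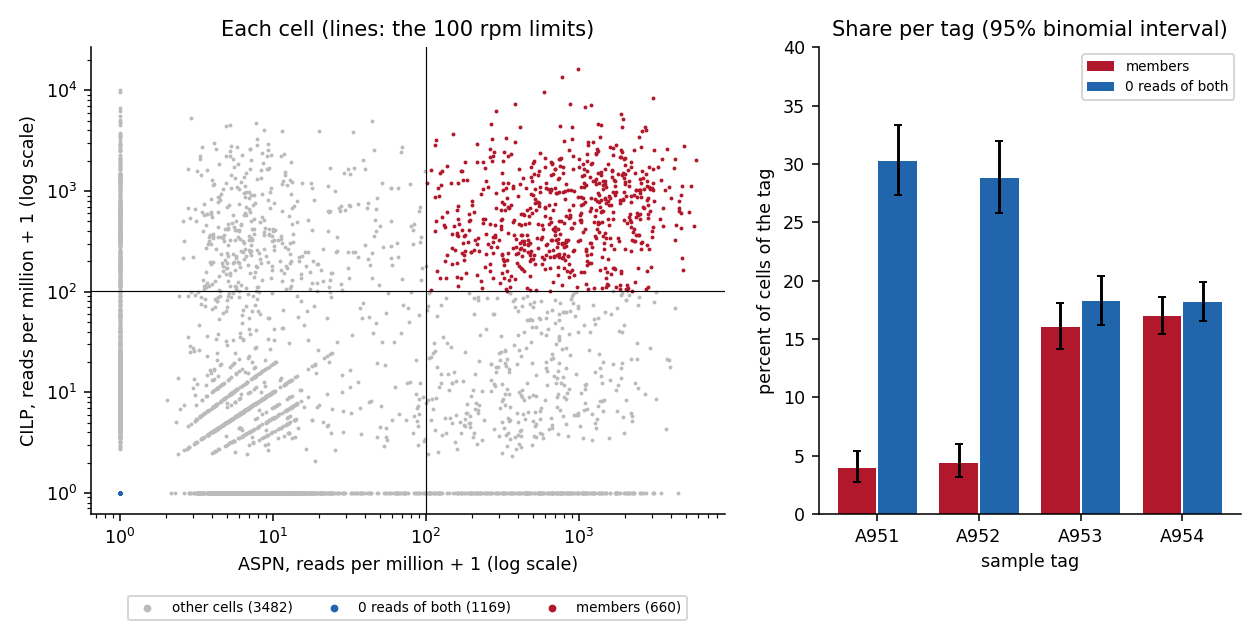
Left, *ASPN* against *CILP* in each of the 5311 cells, in rpm plus 1 on log axes, with lines at the limits; 660 cells lie in the upper right field (red) and 1169 cells with 0 reads of both genes share the point at the lower left (blue). Right, percent of each tag's cells that were ASPN+ CILP+ (red) or had 0 reads of both genes (blue), with 95% exact binomial intervals; the red bars of A953 and A954 stand at 16.0% and 16.96%, above 3.91% and 4.41% in A951 and A952.

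To describe these cells across genes, each was matched within its tag to a cell with 0 reads of *ASPN* and *CILP* whose number of genes detected was at most 10% apart. This gave 422 pairs, of which A951 held 31, A952 35, A953 130 and A954 226. The other 238 ASPN+ CILP+ cells, with a median of 5750.5 genes, had no counterpart, so the pairs leave out the deepest cells. Within the pairs the median was 201700 reads and 3875 genes in ASPN+ CILP+ cells, against 190990 reads and 3705 genes in matched cells. The median share of mitochondrial reads was 1.69% and 1.37%. A gene's level is given as pooled rpm, that is, its reads over all reads of the group, and comparisons are made within a gene, since reads were not divided by gene length.

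Of 9214 genes with a read in at least 10% of the cells of either side, 478 were at least 2-fold higher in ASPN+ CILP+ cells (5.19%) and 652 at least 2-fold lower (7.08%), in all 12.3%. The median log2 ratio of all genes compared was -0.01. Of these genes, 235 were 2-fold higher and higher in all 4 tags (2.55%), and 334 were 2-fold lower and lower in all 4 tags (3.62%). With the mean over cells of rpm, in which each cell weighs the same, 558 genes were 2-fold higher and 716 lower. With the mean over cells of log2(rpm + 1), which also changes the scale, the counts were 207 and 199. Without tag A954 the pooled counts were 819 and 941.

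The markers *CRTAC1* and *IGFBP6* were higher in ASPN+ CILP+ cells than in matched cells. *CRTAC1* stood at 799 rpm against 162 in A951, 1420.2 against 138 in A952, 2207 against 206 in A953 and 2192 against 242 in A954. The ASPN+ CILP+ cells were higher in each tag, and pooled they stood at 9.37-fold (log2 ratio 3.23). Against all other cells in place of those with 0 reads of both genes, the log2 ratio was 1.63, and the mean of log2(rpm + 1) differed by 5.24. Over single cells, *CRTAC1* had a median of 1441 rpm in ASPN+ CILP+ cells (0 to 14484) and 12.7 rpm in matched cells (0 to 12750). The ranges overlapped: 82.0% (78.0–85.5) of ASPN+ CILP+ cells and 18.2% (14.7–22.3) of matched cells reached 100 rpm.

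*IGFBP6* was higher by less. It stood at 810.2 rpm against 157 in A951, 627 against 327 in A952, 1744 against 376 in A953 and 518 against 260.1 in A954. The single-cell medians were 18.7 rpm against 7.60 in A951 and 20.4 against 12.1 in A952. They were 972 against 13.4 in A953 and 144 against 11.7 in A954. The pooled log2 ratio was 1.65, and in A952 (0.94) and A954 (0.99) it stayed just under 2-fold, as did the pooled ratio against all other cells (0.85). The share of cells at 100 rpm or more was 57.8% (52.9–62.6) in ASPN+ CILP+ cells and 23.5% (19.5–27.8) in matched cells. Over all 660 ASPN+ CILP+ cells, *IGFBP6* reached 100 rpm in 78.7% of A953, 55.6% of A954, 27.8% of A951 and 19 of 38 cells of A952. Both *IGFBP6* and *CRTAC1* reached it in 380 of the 660 cells (57.6%, 53.7–61.4), 1.11 times the product of their shares.

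**Figure D2:**
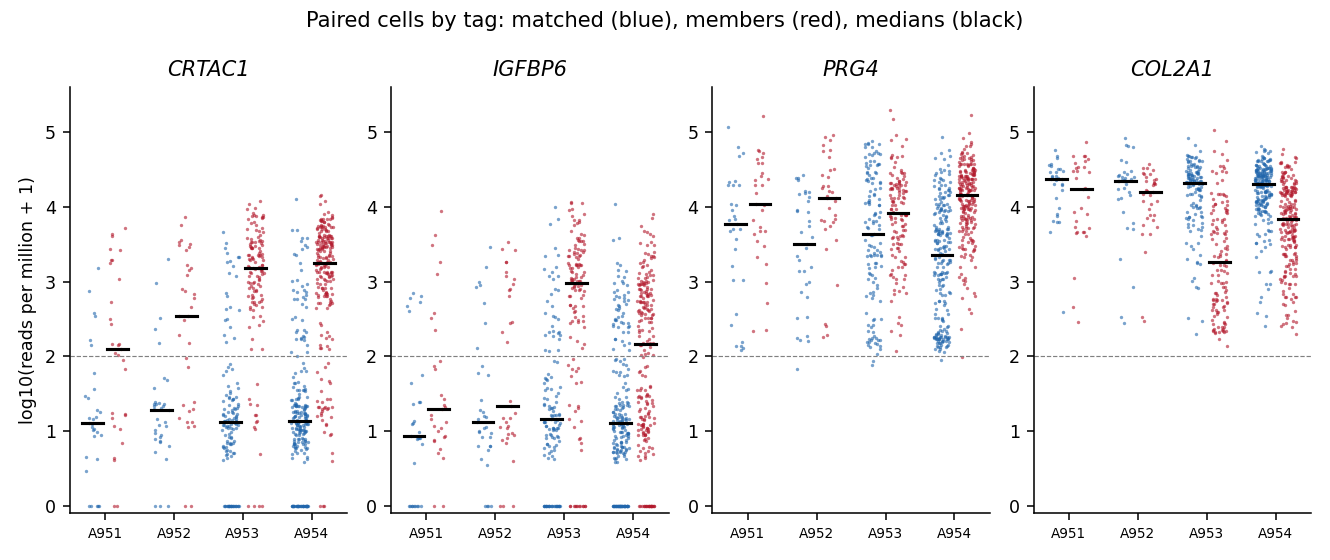
Levels of *CRTAC1*, *IGFBP6*, *PRG4* and *COL2A1* in each paired cell as log10(rpm + 1), by tag, for matched cells (blue) and ASPN+ CILP+ cells (red), with medians in black and 100 rpm dashed. The *CRTAC1* medians of ASPN+ CILP+ cells lie above those of matched cells in each tag, and the *COL2A1* median of ASPN+ CILP+ cells is lowest in A953, at 1855 rpm against 20980.2.

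By the rule for named genes, the 15 largest increases besides *ASPN* and *CILP* were *CD74*, *CLEC3B*, *NQO1*, *GALNT15*, *CYP1B1*, *CRTAC1*, *MATN4*, *SEMA3D*, *LHFPL6*, *LUM*, *TGFBI*, *A4GALT*, *EGR2*, *HYAL1* and *SLC7A2*. *CD74*, the invariant chain of MHC class II molecules, stood at 98.7 rpm against 6.21 (log2 ratio 3.99), and 14.9% of ASPN+ CILP+ cells against 0.474% of matched cells reached 100 rpm, where 77.2% of the reads of the matched cells came from 1 cell. *CYP1B1*, a cytochrome P450 that oxidizes estrogens and aryl hydrocarbons, stood at 2273 rpm against 239 (log2 ratio 3.25), and 51.9% (47.0–56.8) of ASPN+ CILP+ cells against 23.0% (19.1–27.3) of matched cells reached 100 rpm. *LUM*, the collagen-binding proteoglycan lumican, stood at 858 rpm against 147 (2.55). Its log2 ratio was uneven over tags, at 2.75 in A951, 0.41 in A952, 1.08 in A953 and 3.58 in A954. *TGFBI*, a TGF-β-induced matrix protein, stood at 450.4 rpm against 80.4 (2.49), and 58.5% against 16.4% of cells reached 100 rpm. *SLC7A2*, a transporter of cationic amino acids, stood at 521 rpm against 97.8 (2.41).

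*LHFPL6* stood at 239 rpm against 37.8 (2.66) and *SEMA3D*, a secreted semaphorin, at 227 rpm against 34.9 (2.70). *SEMA3D* was uneven over tags, with log2 ratios of 0.88 in A951, 1.57 in A952, 1.06 in A953 and 3.74 in A954. *CLEC3B*, which codes for tetranectin, stood at 95.1 rpm against 6.89 (3.79) and reached 100 rpm in 11.8% of ASPN+ CILP+ cells against 1.66% of matched cells. *NQO1*, a quinone reductase of the antioxidant response, stood at 100.3 rpm against 9.52 (3.40) and reached 100 rpm in 19.7% against 2.37%. *GALNT15*, an enzyme that starts O-linked glycosylation, reached it in 16.4% against 0.474%, where 70.1% of the reads of the matched cells came from 1 cell.

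*MATN4*, a matrilin that links matrix filaments, reached 100 rpm in 18.5% of ASPN+ CILP+ cells and 2.61% of matched cells (log2 ratio 2.93). *A4GALT*, a glycolipid galactosyltransferase, reached it in 21.6% and 4.03% (2.46). *HYAL1*, a lysosomal hyaluronidase, reached it in 11.4% and 2.61% (2.42), and *EGR2*, an immediate early transcription factor, in 10.9% and 3.79% (2.44). These genes were therefore high in a minority of the ASPN+ CILP+ cells. With the mean of log2(rpm + 1), *EGR2* (0.86) was under 2-fold, and against all other cells *A4GALT* (0.50) was.

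The largest decreases included *FBLN2*, *CP*, *THBS4*, *SFRP5*, *CPZ*, *DLK1*, *TIAM1*, *IL1RL1* and *RELN*. *SFRP5*, a secreted inhibitor of WNT signaling, stood at 115 rpm against 195 in A951, 54.0 against 326 in A952, 37.4 against 609 in A953 and 8.34 against 306 in A954. The pooled level was 12.9-fold lower, and 4.74% (2.92–7.22) of ASPN+ CILP+ cells against 28.9% (24.6–33.5) of matched cells reached 100 rpm. *CPZ*, a carboxypeptidase with a WNT-binding frizzled domain, stood at 19.9 rpm against 241 (log2 ratio -3.60) and reached 100 rpm in 2.84% against 34.1%. *CP*, the copper-binding ferroxidase ceruloplasmin, stood at 10.5 rpm against 198 (-4.23) and reached it in 2.13% against 23.7%.

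*THBS4*, a thrombospondin of tendon and cartilage matrix, stood at 11.3 rpm against 161 (-3.83). *IL1RL1*, the receptor of interleukin-33, stood at 22.9 rpm against 164 (-2.85). *DLK1*, a secreted and membrane-bound inhibitor of differentiation, stood at 20.5 rpm against 194 (-3.24), with 59.8% of the reads of the ASPN+ CILP+ cells from 1 cell. *FBLN2*, a fibulin of elastic fibers, reached 100 rpm in 0 of 422 ASPN+ CILP+ cells, for which the exact binomial interval reaches 0.870%, and in 4.03% of matched cells. *TIAM1* (-2.98) and *RELN* (-2.81) were low on both sides, at 31.2 and 24.3 rpm in the matched cells. With the mean of log2(rpm + 1), *IL1RL1* (-0.77), *RELN* (-0.44) and *TIAM1* (-0.36) were under 2-fold. The smallest difference of *FBLN2* under the alternatives was -0.46, which is also under 2-fold. Of its reads in the matched cells, 26.7% came from 1 cell.

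**Figure D3:**
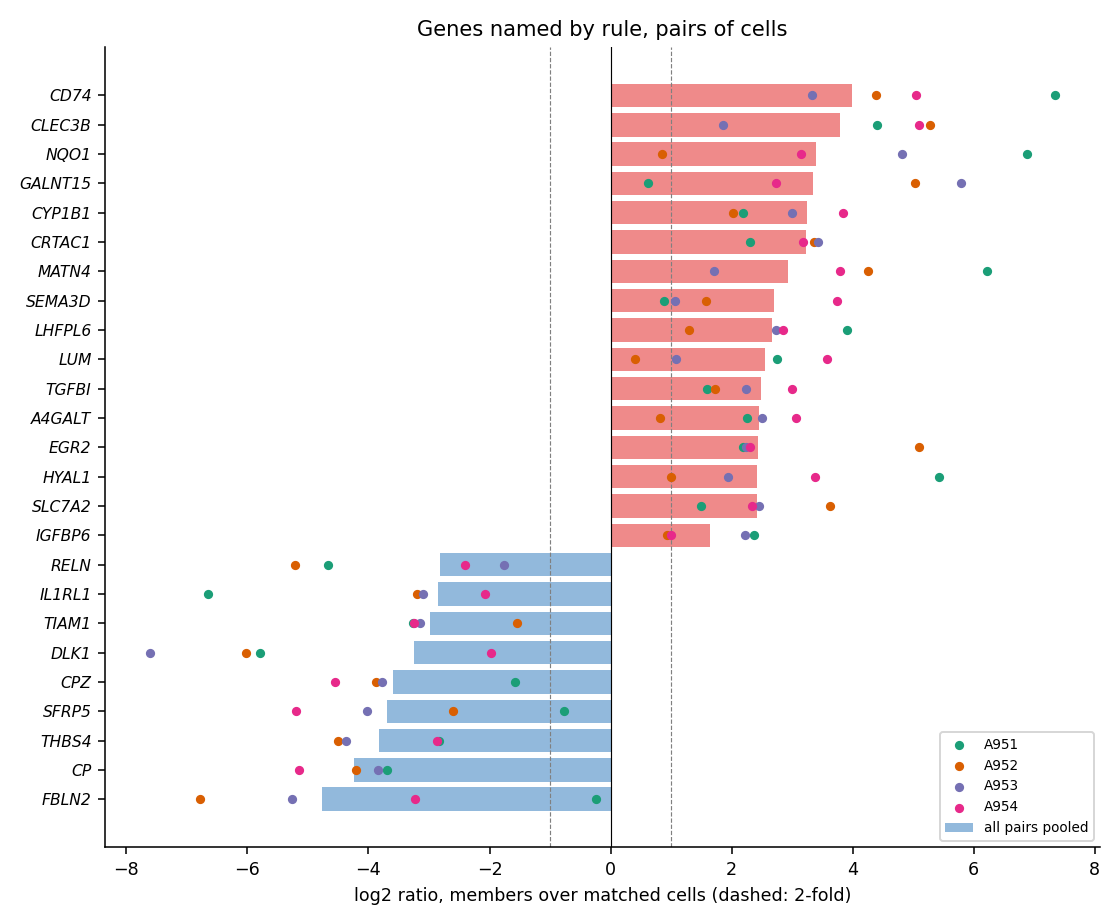
Log2 ratio of pooled rpm, ASPN+ CILP+ cells over matched cells, for the genes named by rule and *IGFBP6*; bars show all 422 pairs and points the 4 tags. All points lie on the side of their bar, which the rule required of every gene but *IGFBP6*. The points spread widely, as for *GALNT15* (0.61 in A951, 5.80 in A953) and *FBLN2* (-0.24 in A951, -6.78 in A952).

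Small leucine-rich proteoglycans regulate the width and spacing of collagen fibrils. Besides *ASPN*, 9 of the 14 listed members could be compared: 3 were at least 2-fold higher, 1 was lower and 5 lay within 2-fold. Over all genes, 5.19% were higher and 7.08% lower. The median log2 ratio of the list was 0.18, beside -0.01 for all genes. *FMOD*, the keratan sulfate proteoglycan fibromodulin, was the most even gene of the group. It stood at 10631 rpm against 4691 in A951, 11109 against 5043 in A952, 12787 against 5615 in A953 and 12551 against 5135 in A954. Every tag was therefore near the pooled log2 ratio of 1.24. *PRELP*, which anchors matrix to basement membranes, had a log2 ratio of 1.16 and between 0.96 and 1.25 in the tags. *OMD*, osteomodulin, was lower (-2.78, 10.6 rpm against 73.2), and *CHAD*, the collagen-binding chondroadherin, stood at 4925 rpm against 9335 (-0.92). Decorin and biglycan, added after their values were seen, differed by less: *DCN* had a log2 ratio of 0.62 and *BGN* of -0.31.

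Of the genes of the superficial zone listed beside *CILP*, 10 were compared: *CRTAC1* and *SEMA3A* were higher, *THBS4* was lower and 7 lay within 2-fold (median 0.56). For all genes the shares were 5.19% higher and 7.08% lower. *SEMA3A*, a secreted repellent of nerve growth, stood at 305 rpm against 131 (1.22). *ABI3BP*, a collagen-binding matrix protein, stood at 414 rpm against 208, just under 2-fold. *PRG4*, which codes for the lubricant lubricin of the joint surface, was read at 100 rpm or more in nearly every cell of both sides, so its share says little, but its level differed. It stood at 18528 rpm against 11777 in A951, 21988 against 7618 in A952, 15187 against 14412 in A953 and 19607 against 6461 in A954. A953 thus showed almost no difference in the pooled level, and the pooled log2 ratio over all tags was 0.97. The single-cell medians in A953 did differ, at 8200 rpm in ASPN+ CILP+ cells and 4320 rpm in matched cells. Over single cells of all tags, *PRG4* stayed under 1000 rpm in 7.35% of ASPN+ CILP+ cells and 32.0% of matched cells.

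Of 16 compared genes of hyaline cartilage matrix, 1 was higher (*MATN4*), 2 were lower and 13 lay within 2-fold, and the median was -0.87. Over all genes, 5.19% were higher and 7.08% lower, and the median was -0.01. The median of the list was thus lower than that of all genes, although most of its genes lay within 2-fold. *FRZB*, a secreted WNT inhibitor of cartilage, stood at 509 rpm against 2215 (-2.12) and was lower in each tag, from -2.28 to -1.51. *CNMD*, the antiangiogenic chondromodulin, stood at 23.8 rpm against 171 (-2.85), but was higher in A952 (0.49). *COL9A1* and *COL9A2*, chains of the type IX collagen that coats type II fibrils, both had a log2 ratio of -0.96, and *SNORC*, a chondrocyte membrane proteoglycan, of -0.94.

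*COL2A1*, which makes the main collagen of hyaline cartilage and was added after its values were seen, showed how far the tags differed. It stood at 24488 rpm against 24496 in A951, 16097 against 23164 in A952, 7717 against 21778 in A953 and 11205 against 21447 in A954. The pooled levels were nearly equal in A951 and furthest apart in A953. Over single cells the median in A951 was 17158 rpm in ASPN+ CILP+ cells and 23607 in matched cells, in A952 15781 and 22469.9, and in A954 6837 and 19952. The median in A953 was 1855 rpm in ASPN+ CILP+ cells (138 to 106605) and 20980.2 in matched cells (200.4 to 83126). *COL2A1* stayed under 1000 rpm in 54 of 130 ASPN+ CILP+ cells in A953 (41.5%) and 28 of 226 in A954 (12.4%), against 5 and 8 of their matched cells. *ACAN*, the core protein of aggrecan, was also added later and had a log2 ratio of -0.86, from -1.75 in A953 to -0.20 in A952.

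The label of fibrocartilage was met in part by the data. Among 9 compared genes that mark fibrochondrocytes in human cartilage, 5 were at least 2-fold higher, 2 were lower and 2 lay within 2-fold, with a median of 1.10, where 5.19% of all genes were higher and 7.08% lower. *COL3A1*, a fibrous collagen, was higher in all tags (1.30, 3038 rpm against 1233). *PRSS23*, a serine protease, reached 100 rpm in 60.7% (55.8–65.4) of ASPN+ CILP+ cells and 26.5% (22.4–31.0) of matched cells (1.40). *THY1*, the surface protein CD90, stood at 610.2 rpm against 285 (1.10). Its log2 ratio was 2.19 in A953, but under 2-fold in A951 (0.93), A952 (0.34) and A954 (0.57). *S100A4* had a log2 ratio of 2.04, but reached 100 rpm in only 6.87% of ASPN+ CILP+ cells.

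*COL1A1*, the chain of type I collagen that defines fibrocartilage, did not follow. It stood at 20.9 rpm against 2099 in A951, 771 against 673 in A952, 388 against 1196 in A953 and 261 against 408 in A954. The ASPN+ CILP+ cells were lower in 3 tags and slightly higher in A952. The pooled log2 ratio of -1.31 rested on few cells: 12.1% (9.13–15.6) of ASPN+ CILP+ cells and 9.00% (6.45–12.2) of matched cells reached 100 rpm. Of the reads of the matched cells, 19.1% came from 1 cell. The mean of log2(rpm + 1) differed by 0.06 in the other direction. *TAGLN*, an actin-binding protein of contractile cells, was lower in each tag (-1.76). The cells are therefore named here by *ASPN* and *CILP*.

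In the wider list of fibrous matrix genes, 4 of 21 compared genes were higher, 6 lower and 11 within 2-fold (median -0.22). The shares over all genes were 5.19% higher and 7.08% lower. *TGFBI* and *FBLN1*, a fibulin of the interstitial matrix (1.45, 242 rpm against 88.3), headed the increases. *COL5A1*, a collagen that starts fibril assembly and was named after its value was seen, had a log2 ratio of 1.26. *ELN*, elastin, stood at 29.9 rpm against 150.0 (-2.33), *FBLN2* was lower (-4.77), and *MFAP4*, a microfibril protein, was lower in the pooled reads (-1.58) and in 2 of 4 tags. Among 5 compared genes of tendon and ligament, *FMOD* was higher and *THBS4* and *EGR1*, a growth response transcription factor, were lower, *EGR1* at -1.01. *SCX*, the transcription factor that defines tendon, was not among the genes listed.

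**Figure D4:**
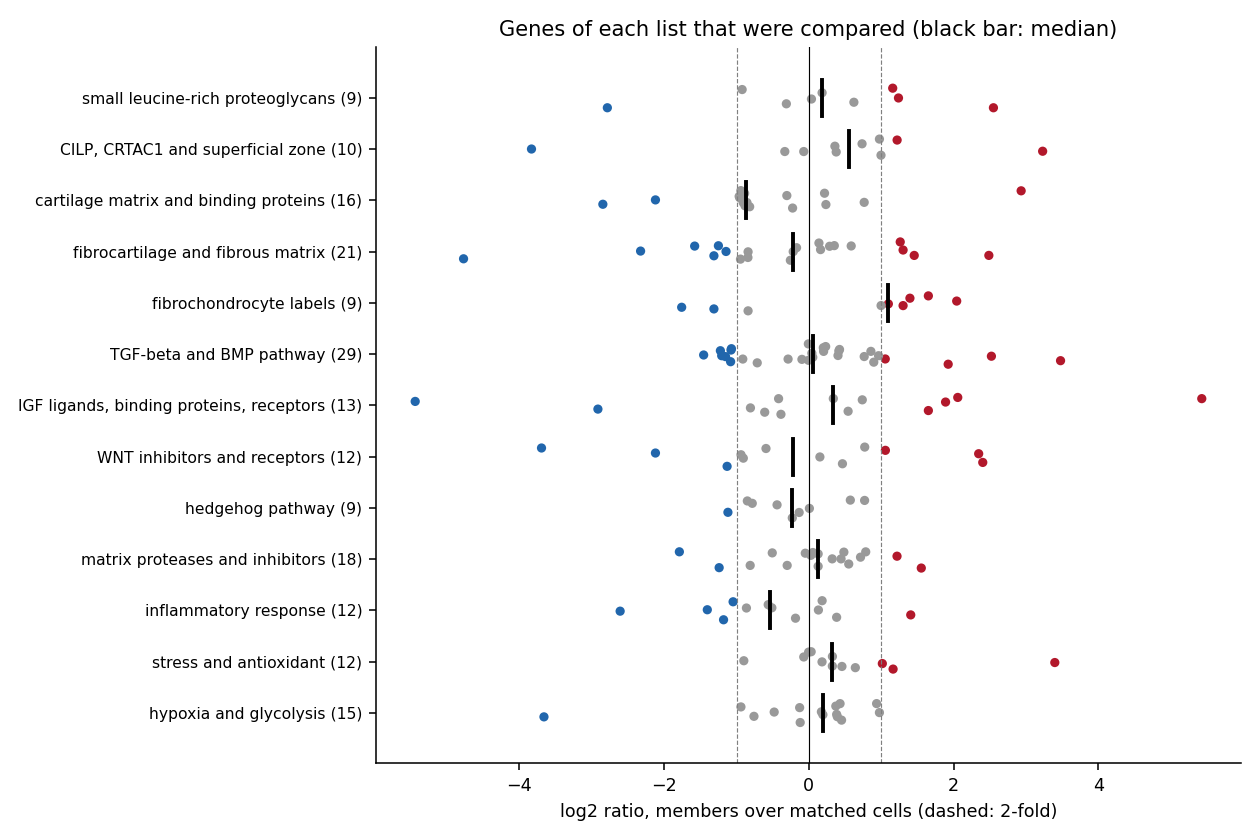
Log2 ratio of pooled rpm for each compared gene of 13 lists, without *ASPN* and *CILP*, with the median of the list as a black bar and 2-fold dashed (red, higher; blue, lower; grey, within 2-fold). The median of the cartilage matrix list lies at -0.87 and that of the fibrochondrocyte list at 1.10, and the medians of the other lists lie between.

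Asporin and CILP both bear on TGF-β signaling, in which secreted ligands bind paired serine kinase receptors, while BMP ligands of the same family use related receptors and are held by extracellular antagonists. Of 29 compared genes of the TGF-β and BMP pathway, 4 were higher, 7 lower and 18 within 2-fold, with a median of 0.05, beside 5.19% higher and 7.08% lower over all genes. *BMP2*, a ligand that promotes chondrocyte maturation, stood at 384 rpm against 898 (-1.22) and was lower in each tag. *BMP4* stood at 38.5 rpm against 3.46 (3.48), but was higher only in A953 and A954. *BMPER*, a BMP-binding modulator, was higher in each tag (1.92), whereas the antagonist *GREM1* was lower in 3 (-1.45). *TGFBR1*, the type I receptor of TGF-β, was lower in each tag (-1.20), and 14.5% of ASPN+ CILP+ cells against 32.2% of matched cells reached 100 rpm. *GDF5*, a ligand of joint formation, had a log2 ratio of 2.52 at 6.03 rpm against 1.05, but was lower in A953 (-1.88). Of its reads in the ASPN+ CILP+ cells, 28.4% came from 1 cell. *GDF5* was read in 12.3% of ASPN+ CILP+ cells and 8.29% of matched cells. It therefore passed the filter on genes only on the side where it was higher.

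IGF1 and IGF2 act through cell surface receptors and are held by binding proteins, which proteases cleave. Of 13 compared genes of this family, 4 were higher, 2 lower and 7 within 2-fold (median 0.34), beside 5.19% higher and 7.08% lower over all genes. *IGFBP5* stood at 808 rpm against 218 (1.89) and reached 100 rpm in 35.3% (30.7–40.1) of ASPN+ CILP+ cells against 6.64% (4.45–9.45) of matched cells, but was lower in A952 (-3.06), and 53.6% of the reads of the matched cells came from 1 cell. *IGFBP4* had a log2 ratio of 2.06 (-0.38 in A952) and *IGFBP2* of 5.43, with 6.87% and 5.69% of ASPN+ CILP+ cells at 100 rpm or more, and 46.1% and 43.7% of the reads of the matched cells came from 1 cell. *IGFBP3* was lower (-2.91, 8.56 rpm against 64.6), with the opposite direction in A951 (1.72). *STC1*, stanniocalcin, which inhibits the protease that frees IGF from its binding proteins, stood at 0.742 rpm against 32.2 (-5.44), with 50.8% of the reads of the ASPN+ CILP+ cells from 1 cell. *IGFBP2* and *STC1* passed the filter of 10% of cells only on the side where they were higher.

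WNT ligands act through frizzled receptors and are held back by secreted inhibitors. Of 12 compared genes of WNT inhibition and reception, 3 were higher, 3 lower and 6 within 2-fold (median -0.22). This compares with 5.19% higher and 7.08% lower over all genes. The summed level of the list was 928 rpm against 3192. The decreases were *SFRP5* (-3.69), *FRZB* (-2.12) and *SFRP1* (-1.13), all secreted proteins that bind WNT ligands, and each was lower in every tag. *DKK3*, a divergent dickkopf protein, was higher in every tag (2.34, 53.4 rpm against 10.5). *NOTUM*, which removes the lipid of WNT ligands, and *AXIN2*, a target of the pathway, had log2 ratios of 2.40 and 1.06 at 11.1 and 10.8 rpm, each with 1 tag in the other direction, and 62.9% of the *NOTUM* reads of the matched cells came from 1 cell. *NOTUM* passed the filter of 10% of cells in the ASPN+ CILP+ cells only.

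Hedgehog ligands act through PTCH and SMO on GLI factors, with CDON and BOC as coreceptors, and this pathway was examined in the study. Of 9 compared genes of the pathway, 0 were higher, 1 was lower and 8 lay within 2-fold (median -0.23), near the 12.3% of all genes outside 2-fold. *BOC* was lower in each tag (-1.12), and 15.9% of ASPN+ CILP+ cells against 30.6% of matched cells reached 100 rpm. *SMO* had a log2 ratio of -0.85 and *CDON* of 0.77, each with the same direction in all tags. The target *GLI1*, outside the rule and named for its place in the study, stood at 7.73 rpm against 9.06. It was low on both sides, and 0.948% of cells on each side reached 100 rpm.

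Among matrix proteases and inhibitors, 2 of 18 compared genes were higher, 2 lower and 14 within 2-fold (median 0.13), where 5.19% of all genes were higher and 7.08% lower. *TIMP3*, the matrix-bound inhibitor of metalloproteinases and aggrecanases, stood at 504 rpm against 1332 in A951, 535 against 1411 in A952, 386 against 1109 in A953 and 336 against 1430.3 in A954. It was thus lower in each tag (pooled -1.79), and the share at 100 rpm or more was 43.1% (38.3–48.0) against 81.5% (77.5–85.1). *CTSK*, the collagen-cutting cathepsin K, was higher (1.22) except in A952, *ADAMTS6* was higher in all tags (1.55), and *MMP2*, a gelatinase, was lower in 3 (-1.24). Of 14 genes of collagen processing, *LOXL2*, a lysyl oxidase, was higher (1.06, in 2 of 4 tags), *PCOLCE2*, an enhancer of procollagen cleavage, was lower (-1.21), and 12 lay within 2-fold.

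Of 7 compared genes of hypertrophy and mineral control, 1 was higher and 2 lower, where 5.19% of all genes were higher and 7.08% lower. The higher gene was *MGP*, the vitamin K-dependent inhibitor of calcification. It stood at 8532 rpm against 4605 in A951, 9600 against 5761 in A952, 20052 against 5924 in A953 and 10563 against 4645 in A954, a pooled log2 ratio of 1.36. The level in A953 was the highest. *PTH1R*, the parathyroid hormone receptor, was lower (-1.05), *RUNX2*, the transcription factor of hypertrophy, was near the background on both sides (0.982 and 2.93 rpm), and the median of the list was 0.29.

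Of 14 compared chondrocyte transcription factors, 13 lay within 2-fold (median 0.00), where 12.3% of all genes lay outside it, among them *SOX6* (0.39), *NFATC1* (-0.89) and *NFATC2* (-0.65). The exception, *RUNX3*, stood at 2.50 rpm against 0.708, with 72.1% of the reads of the ASPN+ CILP+ cells from 1 cell. Of 7 compared genes of limb and axial position, 2 were higher and 5 lay within 2-fold. The higher genes were *HOXA10* (1.31, 36.4 rpm against 14.6, with A951 the other way) and *HOXC9* (1.09, 11.4 rpm against 5.32). *RUNX3* and *HOXC9* passed the filter on genes only in the ASPN+ CILP+ cells.

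The counts in the lists of acute response genes stand beside 5.19% higher and 7.08% lower over all genes. Among 15 immediate early genes, *EGR2* (2.44) and *IER3*, an early response gene of cell survival (1.37), were higher in each tag, *FOSB* (-1.46) and *EGR1* (-1.01, higher in A952) were lower, and 11 lay within 2-fold. *IER3* stood at 1364 rpm against 529. Among 12 inflammatory genes, 1 was higher and 4 lower (median -0.54), of which *LIF* stood at 158 rpm against 417 (-1.40, higher in A951) and *IL6* at 20.1 rpm against 123 (-2.61, higher in A951), with 44.0% of the reads of the ASPN+ CILP+ cells from 1 cell. Among 12 genes of stress and antioxidant response, *NQO1* (3.40), *DDIT3*, a factor of the unfolded protein response (1.16), and *OSGIN1* (1.01, lower in A952) were higher and 0 were lower (median 0.32). Of 15 genes of hypoxia and glycolysis, 0 were higher, 1 was lower and 14 lay within 2-fold (median 0.19). The lower gene, *CA12*, stood at 0.445 rpm against 5.63, with A952 the other way. It passed the filter on genes only in the matched cells. In the list of growth arrest, 5 of 5 genes lay within 2-fold (median -0.04).

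Markers of endothelial cells, blood cells, adipocytes and cycling cells were at low levels in the 660 ASPN+ CILP+ cells, and their part in the differences was not tested. Where markers were compared with matched cells, the shares over all genes were 5.19% higher and 7.08% lower. The 6 listed endothelial markers summed to 3.55 rpm, mostly *VWF* (1.51), the 8 leukocyte markers to 26.1 rpm, mostly *CD68* (20.2), the 2 erythroid markers to 0.175 rpm, mostly *SLC4A1* (0.126), the 4 adipocyte markers to 4.20 rpm, mostly *PLIN1* (4.09), and the 6 cycling markers to 11.05 rpm, mostly *STMN1* (4.92). The 5 markers of pericytes and smooth muscle summed to 22.0 rpm, mostly *ACTA2* (11.6), and 2 of 3 compared were higher than in matched cells, at 7.80 rpm against 1.51 for *ACTA2*. The 7 notochordal markers summed to 19.9 rpm, mostly *NCAM1* (13.1), which in the pairs was lower (-1.37, higher in A951). The 6 osteoblast markers summed to 418 rpm, of which *SPP1* made 406, with 24.5% of its reads in the pairs from 1 cell. The 9 markers of fibroblasts and synovium summed to 925 rpm, of which *THY1* made 563, and of 7 compared, *THY1* and *CD34* (1.28, higher in 2 of 4 tags) were higher and *PDPN*, podoplanin, was lower (-1.61, 130 rpm against 396, with A952 the other way).

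Cells were also grouped by which gene reached 100 rpm: *ASPN* only (580 cells), *CILP* only (732), reads of either but neither at the limit (2170), and 0 reads (1169), with median genes detected of 3953.5, 4054, 3954.5 and 3055. *COL2A1* stood at 12072 rpm in cells with both genes, 10970 in those with *ASPN* only, 28261 with *CILP* only, 22187 with low reads and 22055 with 0 reads. In A951 alone, *COL2A1* stood at 23029 rpm in the 36 ASPN+ CILP+ cells. Pooled over tags, the level in ASPN+ CILP+ cells was thus closer to that of the *ASPN* cells than to that of the *CILP* cells. *MGP* had the same form in the other direction, at 11525, 11584, 5537, 5301 and 5062 rpm, and *PRG4* stood at 18796, 21625, 10325, 9647 and 9488 rpm. *SFRP5* stood at 47.0, 47.3, 368, 376 and 434 rpm, and *ACAN* at 2414, 2394, 4798, 4386 and 4550.3 rpm.

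Other genes were highest where both were at the limit. *CRTAC1* stood at 1803 rpm in cells with both genes, 1354 with *ASPN* only, 531 with *CILP* only, 296 with low reads and 224 with 0 reads. *CYP1B1* followed the same order at 1844, 881, 663, 269 and 241 rpm. *LUM* stood at 815, 475, 236, 129 and 133 rpm. *FMOD* stood at 12075, 9225, 7559, 5476 and 5334 rpm. *COL3A1* was at 3144 rpm with both genes, 2149 with *ASPN* only and 2453 with *CILP* only, against 1323 and 1331 in the remaining classes.

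**Figure D5:**
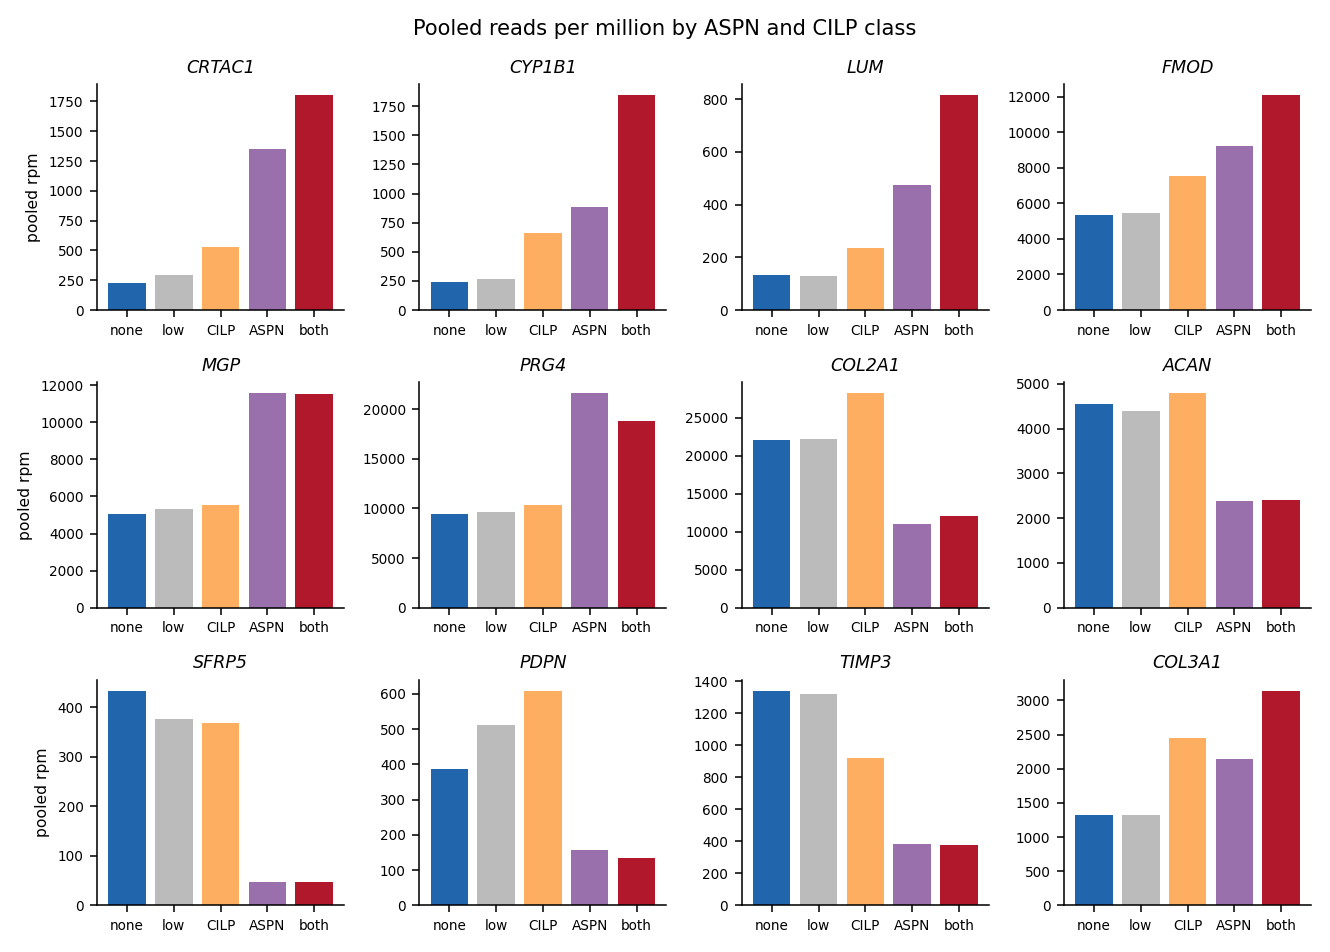
Pooled rpm of 12 genes in cells with 0 reads of *ASPN* and *CILP* (none), reads under the limit (low), *CILP* only, *ASPN* only and both genes at 100 rpm or more; the vertical axes start at 0 and differ between genes. *COL2A1*, *ACAN*, *SFRP5*, *PDPN* and *TIMP3* are lower, and *MGP* and *PRG4* higher, where *ASPN* is at the limit, while *CRTAC1*, *CYP1B1*, *LUM* and *FMOD* are highest in the class with both.

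Cells with *ASPN* only and cells with *CILP* only share no cells with the earlier comparison of pairs, so they were set against each other directly, in 544 pairs matched within a tag on genes detected. This comparison was chosen after the levels of the classes were seen, and its genes are given as values only. *COL2A1* stood at 11004 rpm in *ASPN* cells and 27487 in *CILP* cells (log2 ratio -1.32), and the ratio in the tags was -1.16 in A951, -1.23 in A952, -1.31 in A953 and -1.38 in A954. *SFRP5* (-2.93), *PDPN* (-1.95), *COL9A1* (-1.47), *TIMP3* (-1.24), *CHAD* (-1.14) and *ACAN* (-0.99) were lower in *ASPN* cells in 4 of 4 tags. *COL1A1* (3.50), *SEMA3D* (1.89), *CRTAC1* (1.30), *PRG4* (1.10) and *MGP* (1.04) were higher in *ASPN* cells in 4 of 4 tags. *COL1A1* stood at 971 rpm in *ASPN* cells and 85.8 in *CILP* cells, but 14.2% (11.3–17.4) and 3.68% (2.26–5.62) of the cells reached 100 rpm, the medians were 9.09 and 9.00 rpm, and 33.2% of the reads of the *CILP* cells came from 1 cell. The tags went both ways for *COL3A1* (-0.19, from -0.75 in A954 to 0.43 in A952), *PRELP* (-0.01, from -0.17 in A952 to 0.24 in A951) and *BMP2* (0.01, from -0.56 in A952 to 0.09 in A954).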

How the data were processed

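The authors deposited read counts, as whole numbers, for 1 TAS-seq library (21371 genes, 5723 cells, 24907 to 1649566 reads per cell). The authors aligned reads with HISAT2 2.2.1 to a cynomolgus monkey genome (build not given in the sources used here), assigned them to whole genes by strand with featureCounts 2.0.2, allowing reads that map to several genes, and counted them with velocyto without molecular identifiers. PCR copies are thus in the counts, and reads of near-identical genes are uncertain. Here, rpm is a gene's reads over a cell's or a group's reads. A second matrix, of 1358 columns, was not used.

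ASPN+ CILP+ cells were matched 1 to 1 with cells with 0 reads of both genes, within a tag and within 10% of genes detected. Genes with a read in at least 10% of cells of either side were compared, and 2-fold was called. Named genes were the 15 highest and 10 lowest log2 ratios with the same direction in 4 tags, a read in at least 25% of cells and 20 rpm on the higher side; *IGFBP6* and up to 6 genes per list were added, and 1 gene that met the rule is not reported here. The members and the gene lists (400 genes, 61 not listed in the file) were chosen with earlier results of these data known. Intervals are exact (Clopper-Pearson, 95%). With 1 library no test between groups of cells was made; tags far from the others were sought with Dixon's criterion. Doublets were those marked by the tags (42 cells), and no caller was run. The comparison was also run on simulated data, and no outcome of that run is given here. Python 3.11.15, numpy 2.4.6, scipy 1.17.1 and matplotlib 3.10.9 were used. Alternatives covered matching, scaling, filters, thinning, the limits and leaving out each tag.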

Additional observations from a re-analysis of the deposited data

Results flagged for a closer look

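Among 29 values with 4 tags each, 2 had 1 tag far from the others, by a gap over the 95% critical value of Dixon's test, which chance passes in about 1 in 20 values. The log2 ratio of *EGR2* was 5.09 in A952 and 2.19, 2.23 and 2.30 in A951, A953 and A954. The log2 ratio of *TIAM1* was -1.55 in A952 and -3.27, -3.14 and -3.24 in the others. A952 held 35 pairs.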

How the results depend on the processing

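The counts of genes at least 2-fold higher (478) and lower (652) varied with the processing. With the mean over cells of rpm, in which each cell weighs the same, they were 558 and 716. They were 207 and 199 with the mean over cells of log2(rpm + 1), 293 and 423 after thinning to 50000 reads per cell, 183 and 278 with detection from 5 reads, 1262 and 1514 for genes in at least 1% of cells, and 1388 and 1659 without a filter. Against all other cells matched on genes detected, an alternative chosen after seeing the data, they were 226 and 393. Leaving out 1 tag gave 509 to 819 higher and 703 to 941 lower genes. Other matching, scaling and quality limits, and leaving out the highest cell of each gene, gave 401 to 558 higher and 592 to 716 lower genes. Limits of 50 and 200 rpm gave 433 and 525 higher and 613 and 775 lower genes. The share of ASPN+ CILP+ cells was 14.4% with limits of 50 rpm, 9.68% with 200 rpm, and 9.34% to 14.2% without 1 tag. *COL1A1* differed by 0.064 with the mean of log2(rpm + 1). Without A954, *RUNX3* had -0.50, *TNFAIP3* -0.15 and *CD34* -0.93, where leaving out another tag gave up to 2.60, 1.99 and 1.66. The cause was not tested. The genes named by rule and *IGFBP6* kept their direction under every alternative run, but not their size. The log2 ratio ranged from 1.63 to 5.24 for *CRTAC1*, 1.604 to 6.02 for *CD74*, 0.85 to 2.75 for *IGFBP6*, -7.05 to -1.22 for *DLK1* and -5.54 to -0.46 for *FBLN2*. With the mean of log2(rpm + 1), *EGR2* (0.86), *IL1RL1* (-0.77), *RELN* (-0.44) and *TIAM1* (-0.36) were under 2-fold, and against all other cells *A4GALT* (0.50) was. Cells were compared in pairs matched within tags, but the tags are parts of 1 library, so no test between groups of cells was made. Depth limits genes near 1 read per cell.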

Other observations

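*CD74*, the invariant chain that guides MHC class II molecules, reached 100 rpm in 89 of 660 ASPN+ CILP+ cells (13.5%, exact binomial interval 10.97–16.3) and in 86 of the 4651 other cells under the *KRT19* limit (1.85%, 1.48–2.28). The shares in the tags were 8.33% and 0.339% in A951, 5.26% and 0.486% in A952, 19.0% and 5.71% in A953, and 11.5% and 0.727% in A954. These genes were chosen after their values were seen. In the ASPN+ CILP+ cells at the *CD74* limit, the class II chains *Mafa-DRB* and *HLA-DRA* stood at 165 and 70.1 rpm, against 16.3 and 2.39 rpm in those under it. *Mafa-DRB* is uncertain, since near-identical copies share reads. Of 5 leukocyte genes, the monocyte receptor *CD14* was higher in the cells at the limit, at 8.23 rpm (Poisson interval 7.12–9.46) against 3.83 (3.55–4.12) under it, with 15.02 against 6.96 rpm in A953 and 1.25 against 2.82 rpm in A954. The pan-leukocyte phosphatase *PTPRC* stood at 0.460 rpm against 0.400, *CSF1R* at 0.167 against 0.225 and *LYZ* at 0.0418 against 0.121, and *AIF1* had 0 reads against 0.0219 rpm. Whether leukocyte RNA had a part was not tested.

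The same cells differed in matrix and response genes. *COL2A1* stood at 4132 rpm at the *CD74* limit and 13114 rpm under it, *IGFBP6* at 2038 against 608, *CRTAC1* at 3344 against 1600.2, *CYP1B1* at 6354 against 1252 and *NQO1* at 289.9 against 77.0 rpm. Of the 89 cells, A953 and A954 held 42 each, and of the cells under the limit 179 and 323. Within A953, *COL2A1* stood at 4478 against 10335 rpm and *IGFBP6* at 2694 against 1053 rpm. Within A954, *COL2A1* stood at 3536 against 13286 rpm and *IGFBP6* at 986 against 385 rpm. The median of genes detected over all tags was 4076 against 4595. *CYP1B1* reached 100 rpm in 78 of the 89 cells, 1.70 times the product of the shares, and *NQO1* in 43, 2.29 times. The 86 other cells at the *CD74* limit, of which A953 held 66, had *COL2A1* at 4359.8 rpm and *CYP1B1* at 4921 rpm. Their median of genes detected was 3223.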
